A study of Mus musculus with 25 samples.

Results

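Bulk RNA of 8 mouse basal cell carcinomas was compared, 4 of them labelled resistant and 4 labelled sensitive. They were taken by their column names in the tumour expression table and make up 8 of the 17 RNA libraries and 8 of the 25 samples of the series. Tumours of both groups arose in C57BL6 mice that carried Ptch+/-, K14 Cre-ER and p53 fl/fl, and in both groups the animals were dosed orally with an inhibitor of Smo. The groups therefore share the genotype and the drug. Cre-ER under the keratin 14 promoter acts in keratin 14 cells, so the floxed p53 is a target in those cells and not in the stroma around them. The labels state no age, sex, dose or treatment time. They do not say whether each tumour came from its own animal, and the p-values therefore reflect the spread of these libraries alone, part of which may be technical. In the text, sensitive tumours 1, 2, 3 and 4 bear the numbers 1, 3, 4 and 9 in the deposited table, and resistant tumours 1, 2, 3 and 4 the numbers 6, 7, 8 and 10.

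Basal cell carcinoma is a skin cancer driven by the Hedgehog pathway. The receptor Ptch1 normally holds the membrane protein Smo in check. When Ptch1 is lost, Smo acts through the primary cilium to free the Gli transcription factors, which switch on Gli1, Ptch1 itself, Hhip and D-type cyclins. Smo inhibitors such as vismodegib block this step, and tumours that grow on under the drug are called resistant. The series title names SRF, a transcription factor of cytoskeletal genes, and its actin-sensing coactivators MRTF as a link to resistance. The tumours grow from the basal layer and hair follicle of a tissue that otherwise matures into a cornified barrier.

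Each value is the number of reads at a gene divided by the authors' size factor for that library, called the normalized count. Gene reads came to 8111252 to 11125956 for sensitive tumours 1 to 3, to 14161398 for sensitive tumour 4 and to 17537094 to 20014426 for the resistant tumours, so every resistant library was deeper than every sensitive one (exact permutation test, 2-sided, p = 0.0286, the smallest that 4 against 4 allows; adjusted p = 0.0571 over 4 library measures). A count of 3 reads corresponds to 2.09 to 4.97 normalized counts, and 0 reads allow a level up to that floor (counting error only). Sensitive tumour 4 stood apart from its group. Its log2 values correlated with those of the resistant tumours at r = 0.944 to 0.961 over genes, and with sensitive tumours 1 to 3 at 0.821 to 0.835, while sensitive tumours 1 to 3 correlated with each other at 0.957 to 0.981. Y-linked genes gave 1391 to 2174 reads in sensitive tumours 1 to 3 and 0 in the other 5 libraries, and Xist, the RNA of the inactive X, was at 2939, 2029, 1252 and 60770.5 in sensitive tumours 1 to 4 and at 80520.5, 61076, 62521 and 74773 in resistant tumours 1 to 4. The nuclear RNA Malat1 took 3.20%, 2.89%, 3.11% and 1.31% of reads in sensitive tumours 1 to 4 and 1.30%, 1.60%, 1.53% and 1.69% in resistant tumours 1 to 4. Once sensitive tumour 4 is left out, the label, the sex of the animal and the depth coincide and cannot be told apart. Leaving it out was decided with its position among the resistant tumours already known.

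The engineered genes were read first. Trp53, the floxed gene, was at 651, 606, 588 and 346 in sensitive tumours 1 to 4 and at 365, 451, 387 and 698 in resistant tumours 1 to 4. Ptch1, of which the mice carry 1 altered copy, was at 256, 165, 548 and 3138 and at 3392, 1166, 2569 and 3168. The Trp53 levels of the groups overlapped. Ptch1 was low in sensitive tumours 1 to 3 and high in the other 5 libraries. Both alleles are present in both groups, and reads over a whole gene do not show which part was removed, so neither gene checks the labels.

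With the labels as given, 17 of 15076 tested genes passed (limma, adjusted p = 0.0488 for each), which is 0.113%, with 5 higher in resistant tumours (0.0332%) and 12 lower (0.0796%). An unadjusted p under 0.05 was reached by 3789 genes, or 25.1%. The 17 depend on the fit. Leaving out any 1 of the resistant tumours or of sensitive tumours 1 to 3 ended all 17 calls. With a pseudocount of 0.5 in place of 1 no gene passed by limma, and with edgeR none passed and 3513 reached an unadjusted p under 0.05, whereas DESeq2 called 1638, 521 higher and 1117 lower. The 2 groups did not overlap at 1191 of the tested genes, or 7.9%, with 588 higher in all resistant tumours (3.9%) and 603 lower (4.0%). That count was 7363 without sensitive tumour 4, 2347 without resistant tumour 4 and 1799 without resistant tumour 3.

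Proteases of the upper epidermis were among the genes that followed the labels. The kallikreins Klk5, Klk6 and Klk7 are serine proteases that cut the links between cornified cells so that the skin surface can shed. Klk7 was at 2204, 4593, 4933 and 412 in sensitive tumours 1 to 4 and at 61.2, 10.4, 62.6 and 23.7 in resistant tumours 1 to 4, a log2 difference of -6.04 ± 0.85 (SE; all 8 tumours). Klk6 was at 722, 1833, 1921 and 175 and at 7.0, 3.70, 36.5 and 4.19, a difference of -6.47 ± 0.89. Klk5 was at 77.1, 174, 240.1 and 23.3 and at 7.0, 1.48, 10.3 and 2.09, and did not pass (limma adjusted p = 0.124). In all 3 genes the groups did not overlap, and sensitive tumour 4 was the lowest sensitive tumour. Klk9 showed the same order, with 51.8, 116, 123 and 73.0 in sensitive and 14.0, 17.8, 18.2 and 8.37 in resistant tumours (adjusted p = 0.0721), except that here sensitive tumour 1 was the lowest of its group. Klk10 was at 334, 971, 1346 and 326 and at 117, 111, 139.5 and 53.7, also without overlap. Klk8, by contrast, was at 41.4, 81.9, 106 and 48.7 and at 55.1, 140.0, 105 and 27.9, and its groups overlapped fully. Kallikreins are a family of similar genes at 1 locus, so reads may be shared among them.

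Of the 20 epidermal proteases and inhibitors listed, 17 had enough reads to be tested without sensitive tumour 4 and 16 with all 8. Beside 4.0% of all genes lower and 3.9% higher without overlap, 8 of the 16 were lower in resistant tumours and 0 higher. Their median log2 difference with all 8 tumours was -1.90, beside 0.03 over all genes tested. A gene under 10 in every resistant tumour was tested with all 8 only if every sensitive tumour, sensitive tumour 4 included, reached 10. Such a gene with sensitive tumour 4 at the resistant level was left out before overlap was counted. Counts of lower genes without overlap are thus partly set by the filter, here and over all genes. Cystatin Cst6, an inhibitor of cysteine proteases that guards barrier formation, was at 1683, 4305, 3617 and 229 in sensitive tumours 1 to 4 and at 42.0, 17.0, 84.0 and 11.9 in resistant tumours 1 to 4. Asprv1, the skin protease that processes filaggrin, was at 589, 917, 671 and 705 and at 161, 93.3, 155 and 251 (difference -2.19 ± 0.29). Spink5, the inhibitor that restrains the kallikreins, was at 1131, 2020.4, 1558 and 1962 and at 412, 52.6, 403 and 46 (difference -3.51 ± 0.74, limma adjusted p = 0.127). In Asprv1 and Spink5 sensitive tumour 4 lay among the other sensitive tumours, and the resistant tumours varied more widely in Spink5 than in Asprv1. Ctsd, a lysosomal protease active in most cells, was at 4951, 6402, 7279.8 and 6892 and at 5610.0, 7337, 8141 and 7652, with the groups overlapping.

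**Figure D1:**
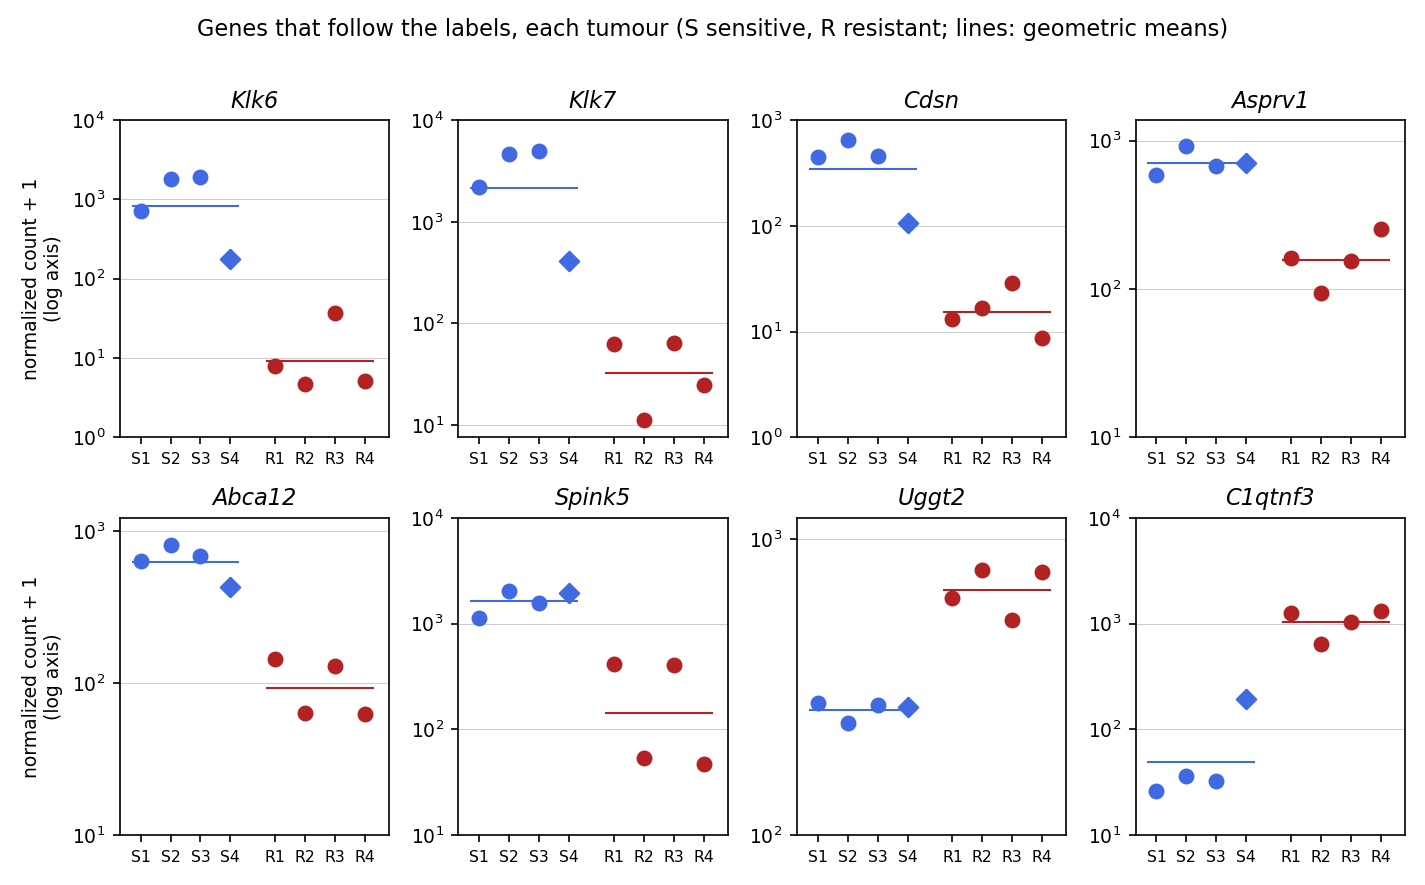
Normalized count + 1 (log axis) of 8 genes in each tumour, S1 to S4 sensitive (blue; diamond, sensitive tumour 4) and R1 to R4 resistant (red), with the geometric mean of each group as a line. No gene shown has overlapping groups, and sensitive tumour 4 sits between the groups in Klk6, Klk7, Cdsn and C1qtnf3 but with the other sensitive tumours in Asprv1, Spink5 and Uggt2.

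The cornified layer was lower in resistant tumours at several of its structural genes. Cdsn encodes corneodesmosin, the adhesive protein that Klk5 and Klk7 cleave, and was at 443, 649, 455 and 105 in sensitive tumours 1 to 4 and at 12.2, 15.6, 27.7 and 7.67 in resistant tumours 1 to 4 (difference -4.49 ± 0.59). Krt80, a keratin of maturing epithelium, was at 526, 687, 442 and 262 and at 63.8, 31.8, 74.5 and 94.2 (difference -2.86 ± 0.39). Kprp, a cornified envelope protein, was at 153, 122, 159 and 48.7 and at 8.74, 0, 8.72 and 8.37 and did not pass. None of these overlapped between groups. Krt10, a keratin of the differentiated list, was at 1740, 1375, 694 and 115 and at 74.3, 65.9, 116 and 100. Krt2, from the same list, was at 35.7, 112, 34.8 and 0 and at 0, 1.48, 0 and 0, and was not tested with all 8 tumours. In Krt10 and Krt2 sensitive tumour 4 was inside the resistant range. Of 26 genes of differentiated keratinocytes, 18 were tested with all 8 tumours. Without overlap 5 were lower and 0 higher, beside 4.0% and 3.9% of all genes. The filter limits this count too, as it left out Krt2, in which sensitive tumour 4 was at 0. Cnfn, a cornified envelope component, was among the 5, at 85.2, 133, 124 and 142 and 31.5, 0, 23.8 and 2.79. The lowest Cnfn values were in resistant tumours 2 and 4. Tgm1, the transglutaminase that crosslinks the envelope, went the other way with sensitive tumour 4 left out, at 49.5, 59.3, 84.5 and 283 and 323, 243, 115 and 169. Lor, the envelope protein loricrin, did so at low levels, 6.91, 2.83, 1.66 and 26.4 and 64.7, 7.41, 30.9 and 19.5, and its call was lost without sensitive tumour 2 (limma adjusted p = 0.0766) or 3 (0.0756). In both genes sensitive tumour 4 was inside the resistant range.

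Of 19 tested barrier lipid genes, 7 were lower in resistant tumours without overlap and 0 higher, beside 4.0% and 3.9% of all genes, and 2 passed with all 8 tumours. Abca12, which loads lipid into lamellar granules, was at 631, 815, 686 and 429.8 in sensitive tumours 1 to 4 and at 143, 63.0, 128 and 62.1 in resistant tumours 1 to 4 (difference -2.75 ± 0.34). The phospholipase Pla2g4e was at 244, 295, 199 and 119 and at 29.7, 22.2, 19 and 6.98 (difference -3.47 ± 0.46). Pla2g2f, a secreted phospholipase of the epidermis, was at 146, 195, 199 and 33.4 and at 8.74, 8.15, 20.6 and 4.88 (adjusted p = 0.109). The groups were separate in all 3, with sensitive tumour 4 the lowest of its group. Alox12e, from the same list, was at 235, 151, 237 and 3.04 and at 1.75, 0.741, 4.76 and 9.77. There sensitive tumour 4 was inside the resistant range, and the gene was not tested with all 8 tumours. The filter thus kept Alox12e out of the count without overlap. Cyp4f39, which acts on very long fatty acids for ceramides, was at 86.3, 89.0, 56.3 and 23.3 and at 12.2, 0.741, 8.72 and 4.88. Elovl1, an elongase used by many tissues, was at 300.4, 312, 349 and 345 and 316, 390.3, 378 and 331, with overlap.

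The remaining genes that passed with lower values are of mixed function. Pglyrp4, a secreted protein that binds bacterial cell wall, was at 157, 223, 232 and 87.2 in sensitive tumours 1 to 4 and at 14.9, 3.70, 11.1 and 8.37 in resistant tumours 1 to 4. Diras2, a small GTPase, was at 184, 196, 333 and 158 and at 43.7, 42.2, 39.6 and 40.5. Fam13a was at 2294, 2008, 2325 and 1179.8 and at 605, 577, 514 and 660.0. The 4 resistant values of Diras2 were nearly equal to each other, and sensitive tumour 4 was the lowest sensitive tumour in all 3. Soga3 and Gm94 passed at low levels, Soga3 with 20.7, 14.1, 26.5 and 21.3 and 1.75, 0, 0 and 0.698 and Gm94 with 86.3, 66.4, 71.2 and 31.4 and 7.87, 2.96, 3.17 and 1.4. Both reached 10, the level needed in 4 tumours for testing, only in the sensitive tumours. They were thus tested only through the group in which they were high.

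Among the 5 genes that passed with higher values, Uggt2, a checkpoint enzyme of glycoprotein folding, was at 277, 239, 273 and 269.6 in sensitive tumours 1 to 4 and at 632, 784, 533 and 772 in resistant tumours 1 to 4 (difference 1.34 ± 0.17). C1qtnf3, a secreted relative of complement C1q, was at 25.3, 35.3, 31.5 and 192 and at 1261, 641, 1029 and 1317 (difference 4.37 ± 0.59). Sensitive tumour 4 matched its group in Uggt2 and lay between the groups in C1qtnf3. Chst9, a sulfotransferase, was at 0, 0, 0 and 2.03 and 14.0, 29.6, 40.4 and 36.3. Fgf23, a hormone of phosphate balance, was at 1.15, 1.41, 0 and 0 and 56.0, 17.0, 19 and 33.5. Both were at or under the floor of 3 reads in every sensitive tumour. Chst9 and Fgf23 reached 10, the level needed in 4 tumours for testing, only in the resistant tumours. They were thus tested only through the group in which they were high. Sorbs2os was at 24.2, 22.6, 23.2 and 21.3 and 108, 77.0, 92.7 and 67.7. Sorbs2, an adaptor of actin filaments on the opposite strand, was at 62.2, 59.3, 76.2 and 179 and 556, 368, 523 and 369.8 (adjusted p = 0.0641). The labels do not say whether the libraries keep strand, so reads of these overlapping genes cannot be told apart.

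Other genes were higher in all resistant tumours without passing. Nr2f2, a nuclear receptor of stromal and venous cells, was at 185, 159.7, 97.7 and 469 in sensitive tumours 1 to 4 and at 1007, 903, 992 and 1208 in resistant tumours 1 to 4. Pou3f4, a developmental transcription factor, was at 0, 0, 4.97 and 25.3 and at 264, 71.8, 453 and 117. Map9, which binds mitotic microtubules, was at 46, 17.0, 21.5 and 108 and at 314, 412, 327 and 239. In all 3 sensitive tumour 4 was the highest sensitive tumour, still below every resistant one. Zfhx3, a large homeobox factor, was at 475, 369, 291 and 630.4 and 1273, 1604, 2931 and 1220.2. Aplnr, the apelin receptor of endothelium, was at 29.9, 32.5, 28.2 and 61.8 and 121, 142, 153 and 423, with resistant tumour 4 the highest. Ikzf2, a zinc finger factor of the Ikaros family, was at 50.6, 114, 139 and 123 and 311, 425, 312 and 278, with sensitive tumour 4 inside its own group.

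The presence of Y reads could be put in the same fit because sensitive tumour 4, like the resistant tumours, had none. With a Y-read term no gene passed by limma and 818, or 5.43%, reached an unadjusted p under 0.05. edgeR and DESeq2 were not run with this term. That fit sets the resistant tumours against sensitive tumour 4 alone, and the lone tumour is assumed to vary like the rest. Its genes passed the same filter, which keeps those under 10 in every resistant tumour only where sensitive tumour 4 reached 10. Of the 16 tested epidermal proteases and inhibitors, 9 reached an unadjusted p under 0.05 in it, with a median log2 difference over the list of -2.17, beside -0.01 over all genes.

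Left without sensitive tumour 4, the same fit called 6184 of 15479 genes (limma, adjusted p under 0.05), or 40.0%, with 3183 higher in resistant tumours (20.6%) and 3001 lower (19.4%). An unadjusted p under 0.05 was reached by 49.8%. edgeR called 6086 and DESeq2 6802. When sensitive tumour 2 was also left out, 3859 genes were called. The share of higher calls was 51.5% with the authors' scaling and 40.3% when reads were scaled to library totals, which moved the median log2 difference of all genes from 0.02 to -0.13. Folds below are on the authors' scale. For each of the 3826 called genes that changed at least 2-fold, the position of sensitive tumour 4 was computed on the log2 scale, with 0 for the mean of sensitive tumours 1 to 3 and 1 for the mean of the resistant tumours. The median position was 1.04. It was 0.75 or more for 3126 genes (81.7%), between 0.25 and 0.75 for 601 (15.7%), and 0.25 or less for 99 (2.59%). Of all 6184 called genes, sensitive tumour 4 fell inside the range of the resistant tumours only at 3678 (59.5%). It fell inside that of sensitive tumours 1 to 3 only at 167 (2.70%), inside both at a further 8 and inside neither at 2331.

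**Figure D2:**
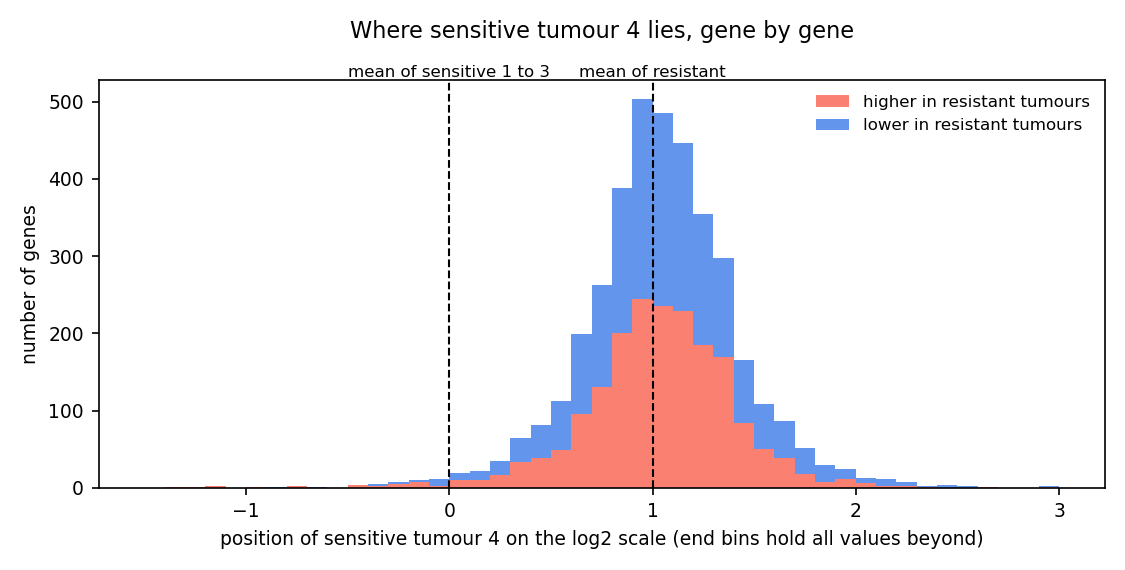
Number of genes by the position of sensitive tumour 4 on the log2 scale, for the 3826 genes called without it with at least a 2-fold change, stacked as higher (red) or lower (blue) in resistant tumours. Dashed lines mark the means of sensitive tumours 1 to 3 (0) and of the resistant tumours (1); the bulk of both colours lies around 1, with the median at 1.04, and 99 genes lie at 0.25 or below.

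Differences in the following paragraphs set the 4 resistant tumours against sensitive tumours 1 to 3, and the value of sensitive tumour 4 is given beside them. Each list count below stands beside the 20.6% of all tested genes that rose and the 19.4% that fell in that fit. In bulk tissue, fewer cells of a type and less RNA per cell cannot be told apart. The ligands Shh and Ihh had too few reads to be tested. Among the Gli factors and the outputs of the pathway, Gli1 was at 532, 544, 649 and 1976 in sensitive tumours 1 to 4 and at 2096, 1456, 3541 and 2428 in resistant tumours 1 to 4, and rose by 1.98 ± 0.27 (log2, SE; adjusted p = 9.77e-04). Gli2, the main activator, was at 2187, 2701, 3630.0 and 22854 and at 19143, 21737, 25362 and 17093 and rose by 2.89 ± 0.21. Hhip, a decoy that binds the ligand, was at 24.2, 24.0, 409 and 1442 and at 828, 1412, 1706 and 1279 and rose by 4.31 ± 0.89. In all 3 genes sensitive tumour 4 lay within the resistant range, and in Hhip sensitive tumour 3 lay well above sensitive tumours 1 and 2. Ptch1 rose by 3.06 ± 0.47. Ccnd1, cyclin D1, was at 2502, 1674, 1419 and 10997 and at 7374, 5527, 15280.3 and 12776 and rose by 2.38 ± 0.36. Of 18 Hedgehog targets, 15 were tested, 7 rose, 2 fell and the median log2 difference was 0.59, beside 0.02 over all genes. The 2 that fell were Sfrp1, a Wnt antagonist, at 1537, 4819, 14379 and 193 and 691, 421, 1361 and 1719.8, and Sox9, a hair follicle factor, at 3713, 5571, 6185 and 2455 and 2706, 1522, 3448 and 2374. Neither passed when sensitive tumour 2 (limma adjusted p = 0.0891 for Sfrp1 and 0.0738 for Sox9) or sensitive tumour 3 (0.0952 and 0.0670) was also left out, nor did Sfrp1 without resistant tumour 1 (0.0686) or 2 (0.0666).

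Smo, the drug target, was at 2985, 2757, 2943 and 2549 in sensitive tumours 1 to 4 and at 1922, 1987, 2658 and 2166 in resistant tumours 1 to 4, and fell by 0.42 on the log2 scale (limma adjusted p = 0.0487). That call was lost with edgeR (adjusted p = 0.0582) and without any further tumour other than resistant tumour 3 (0.0692 to 0.131). Sufu, which holds Gli proteins in the cytoplasm, was at 463, 503, 532 and 822 and at 660.2, 927, 1020.2 and 690.0 and rose by 0.70 ± 0.19. Gli3, the main repressor form, was at 826, 1044, 1528 and 850.4 and at 1296, 833, 989 and 876, and did not pass. Sensitive tumour 4 was inside the resistant range in both Smo and Sufu. The coreceptor Boc was at 886, 1173, 1875 and 143 and at 281, 844, 658 and 472 and fell, with sensitive tumour 4 the lowest of all 8. The calls of Sufu and Boc were lost when a further tumour was left out, for Sufu sensitive tumour 1 (0.0644) or 2 (0.0634), and for Boc sensitive tumour 2 (0.0801) or 3 (0.109) or resistant tumour 4 (0.0564). Of the 22 pathway components, 19 were tested, 6 rose and 3 fell, and of 24 primary cilium genes 1 rose and 4 fell. Over all genes 20.6% rose and 19.4% fell, so the share of components that changed was near that of all genes and the share of cilium genes was below it.

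**Figure D3:**
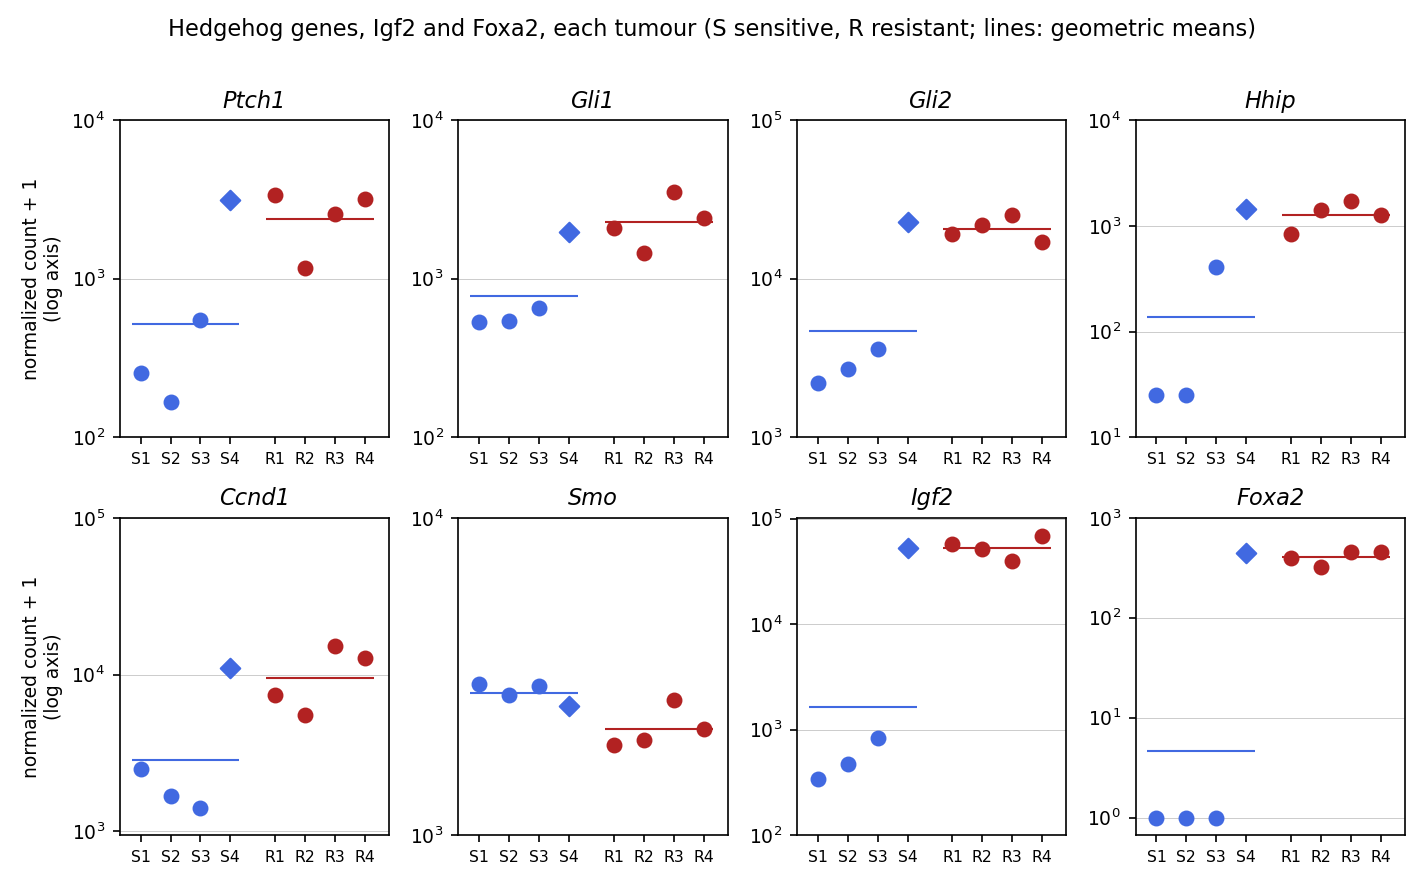
Normalized count + 1 (log axis) of 8 genes in each tumour, with symbols and lines as in the plot of genes that follow the labels. Sensitive tumour 4 (diamond) lies among the resistant tumours in every panel, and Foxa2 has 0 reads in sensitive tumours 1 to 3 and 445 normalized counts in sensitive tumour 4.

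SRF and MRTF act together on genes of the actin cytoskeleton, through a promoter element named the CArG box. The 250 bases upstream of the start site were searched on both strands in RefSeq promoters of GRCm38.p6. A CArG box was found in 11 of 32 matched SRF-MRTF targets (34.4%), out of 39 listed, and in 1.62% of all 27025 genes in that table. Windows of 5 targets that passed are shown because they carry the element (capitals, 5′ to 3′ along the gene), and these genes were picked for their match:
Cnn2: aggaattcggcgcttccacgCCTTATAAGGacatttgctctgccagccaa
Myl6: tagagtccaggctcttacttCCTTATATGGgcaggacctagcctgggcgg
Fhl2: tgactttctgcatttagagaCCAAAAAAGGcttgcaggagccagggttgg
Fermt2: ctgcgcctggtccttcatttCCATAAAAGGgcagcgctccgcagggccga
Filip1l: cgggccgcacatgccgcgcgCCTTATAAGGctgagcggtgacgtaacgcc
Cnn2, a calponin, lies at chr10:79988524-79988573 on the plus strand. Myl6, a myosin light chain, lies at chr10:128493030-128493079 on the minus strand. Fhl2, a LIM domain protein, lies at chr1:43196828-43196877 on the minus strand. Fermt2, kindlin-2, lies at chr14:45530240-45530289 on the minus strand. Filip1l, a filamin-interacting protein, lies at chr16:57549160-57549209 on the plus strand. The letters describe these windows and show no binding.

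Cnn2 was at 722, 644, 508 and 1633 in sensitive tumours 1 to 4 and at 1466, 987, 1461 and 1492 in resistant tumours 1 to 4. Fermt2 was at 986, 757, 799.9 and 2367 and at 3058, 2034, 1627 and 2738. Filip1l was at 5298, 7281, 12761 and 4196 and at 3212, 3529, 3962 and 4434. Cnn2 and Fermt2 rose and Filip1l fell, and in all 3 sensitive tumour 4 was on the resistant side. Among the 10 tested targets with the element, 4 rose, 1 fell and 5 did not pass, and among the 21 matched targets without it, 13 rose, 1 fell and 7 did not pass. Over the whole list, 38 of 39 targets were tested, 23 rose and 3 fell, beside 20.6% and 19.4% of all genes. The median log2 difference of the list was 0.74, beside 0.02 over all genes.

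Cyr61, a matricellular growth factor, was at 422, 309, 268 and 1497 in sensitive tumours 1 to 4 and at 2920.4, 1116, 1497 and 1491 in resistant tumours 1 to 4 (difference 2.32 ± 0.31, limma adjusted p = 9.44e-04). Cnn3, the non-muscle calponin, was at 532, 458, 485 and 1087 and at 1366, 1092, 1229 and 1350.0 (difference 1.35 ± 0.14). Cald1, caldesmon, was at 5215, 5081, 4008 and 11043 and at 12861, 10326, 12949.7 and 11979 (difference 1.34 ± 0.15). Cnn3 was the one of these in which the groups did not overlap with all 8 tumours, by a narrow gap. Itga5, the fibronectin receptor subunit, was at 897, 952, 937 and 2583 and at 3382, 3184, 2991 and 2057. Acta2, smooth muscle actin, was at 4613, 3074, 1023 and 3797 and at 2752, 3152, 4509.7 and 6336, and did not pass. Actb, cytoplasmic beta-actin, was at 24636, 20558, 19745 and 35234 and at 31467, 28339.8, 30155 and 30639 and rose by 0.48 ± 0.15, a call lost with reads scaled to library totals (limma adjusted p = 0.106), with quantile normalization (difference 0.03, adjusted p = 0.895) and without any further tumour other than sensitive tumour 1 (0.0505 to 0.132). The 3 that fell were Filip1l, Csrp1 and Thbs1. Csrp1, a LIM protein of smooth muscle, was at 1851, 1399, 1548 and 295 and at 379, 221, 355 and 494. Thbs1, thrombospondin 1, was at 15889, 25751, 43177 and 3716 and at 4435, 8749, 4435 and 2881. Of the factors, Srf was at 573, 490.3, 426 and 544 and 644, 473, 604 and 755 and Mkl1, which encodes MRTF-A, was at 844, 1218, 1649 and 1241 and 1808, 1374, 1611 and 998; both overlapped. Mkl2, which encodes MRTF-B, was at 12383, 9041, 5124 and 3372 and 3524, 3590.0, 3906 and 3399.8, and fell by 1.21 on the log2 scale (adjusted p = 0.00782).

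Cxcl2 and Cxcl3, chemokines that draw neutrophils, were among the 8 genes with the largest rise that sensitive tumour 4 shared. The promoters of 5 of 17 matched chemokines (29.4%), out of 23 listed, held an NF-kB site within 250 bases upstream on either strand, beside 5.67% of all genes in that table. NF-kB is a family of factors that switches on inflammatory genes. The windows of 4 that rose are shown because the first 3 share the same 10-base site (capitals, 5′ to 3′ along the gene, RefSeq, GRCm38.p6):
Cxcl1: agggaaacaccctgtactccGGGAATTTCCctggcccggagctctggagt
Cxcl2: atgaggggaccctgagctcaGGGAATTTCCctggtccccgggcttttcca
Cxcl3: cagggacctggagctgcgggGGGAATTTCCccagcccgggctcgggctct
Cxcl10: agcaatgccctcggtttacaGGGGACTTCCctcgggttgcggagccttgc
Cxcl1, Cxcl2 and Cxcl3 lie at chr5:90891154-90891203, chr5:90903782-90903831 and chr5:90786008-90786057, all on the plus strand, and Cxcl10 lies at chr5:92348964-92349013 on the minus strand. Of the 5 with the site, 4 rose and 1 did not pass. Of the 11 tested without it, 3 rose, 3 fell and 5 did not pass. The match is a description of letters only.

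Cxcl3 had 0 reads in sensitive tumours 1 to 3, 834 normalized counts in sensitive tumour 4, and 283, 226, 358 and 104 in resistant tumours 1 to 4, which is at least 48.8-fold higher in resistant tumours against a floor of 3 reads in the shallowest library. Cxcl2 was at 29.9, 8.48, 0 and 5283 and at 1546, 1651, 2600.1 and 1485. Cxcl1 was at 23.0, 22.6, 8.28 and 262 and at 629, 938, 486 and 262 (difference 4.92 ± 0.48). Sensitive tumour 4 had the highest Cxcl2 and Cxcl3 of all 8 tumours, and in Cxcl1 it was just below the lowest resistant tumour. Cxcl10, which draws T cells, was at 135, 79.1, 56.3 and 429.8 and at 384, 197, 305 and 218. Csf3, the growth factor that releases neutrophils from marrow, was at 4.6, 0, 1.66 and 688 and at 3414, 2626, 1423 and 603 (difference 9.40 ± 0.70). Ccl27a and Ccl22 were among the 3 chemokines that fell, Ccl27a at 364, 249, 238 and 31.4 and 71.7, 69.6, 80.9 and 96.3 and Ccl22 at 76.0, 72.1, 44.7 and 8.11 and 12.2, 4.44, 10.3 and 9.07. Of 22 tested chemokines, 11 rose and 3 fell, with a median log2 difference of 1.79, and of 23 tested NF-kB and cytokine genes, 18 rose and 0 fell, with a median of 1.74.

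Neutrophil marker genes moved with these chemokines. Of 16 such genes, 13 were tested, 12 rose and 0 fell, with a median log2 difference of 3.83. Over all genes 20.6% rose and 19.4% fell. The neutrophil list holds Hdc, which is also in the list of mast cell markers. The summed level of the neutrophil list was 1027 to 1654 across sensitive tumours 1 to 3 and 26741 for sensitive tumour 4. In the resistant tumours it was 11607 to 15829.7. S100a9, an abundant neutrophil protein, was at 249.8, 126, 137 and 8162 in sensitive tumours 1 to 4 and at 2683, 2384, 3534 and 3477 in resistant tumours 1 to 4. Il1b, the cytokine interleukin 1 beta, was at 153, 139.9, 136 and 5275 and at 1627, 2369, 2004 and 3579.8. Sensitive tumour 4 was the highest of the 8 in both. Markers shared by all leukocytes did not separate the groups in this way. Of 6 such markers 1 rose and 0 fell. Their sum was 2097 to 3667 across sensitive tumours 1 to 3 and 8365 for sensitive tumour 4. In the resistant tumours it was 3094 to 10120. The part of neutrophils in the chemokine differences was not tested.

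Most hypoxia and glycolysis genes were higher in resistant tumours. Of 28 tested, 24 rose and 1 fell, with a median log2 difference of 2.47. Vegfa, the vessel growth factor, was at 478, 425, 467 and 4741 in sensitive tumours 1 to 4 and at 6424, 3878, 4519 and 6659 in resistant tumours 1 to 4 (difference 3.52 ± 0.21, limma adjusted p = 3.84e-05). P4ha2, a collagen prolyl hydroxylase, was at 145, 138, 152 and 2602 and at 2612, 1549, 1626 and 1813 (difference 3.67 ± 0.20). Slc16a3, the lactate exporter, was at 93.2, 116, 92.7 and 1583 and at 1774, 944, 1161 and 1015 (difference 3.55 ± 0.23). In all 3 sensitive tumour 4 lay within the resistant range. The exception was Car12, a surface carbonic anhydrase, at 7766, 7271, 6488 and 1012 and 1215, 570.3, 1121 and 542, which fell. Gapdh, a glycolytic enzyme often taken as a constant reference, was at 5832, 5941, 6374 and 51662 and 57462, 38051, 44596 and 36153.

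Cell cycle genes rose at 29 of 34 and fell at 0, with a median log2 difference of 1.66. Mki67, the proliferation marker, was at 1778, 1549.9, 669 and 10819.8 in sensitive tumours 1 to 4 and at 13019, 4119, 7829 and 10507 in resistant tumours 1 to 4 (difference 2.73 ± 0.44). Mcm3, part of the replication helicase, was at 153, 137, 136 and 1436 and at 1075, 584, 999 and 1097, and Cdt1, which loads it, was at 84.0, 76.3, 77.8 and 382 and at 290.3, 246, 285 and 257. Resistant tumour 2 had the lowest value of its group in all 3. Sensitive tumour 4 was the highest of the 8 tumours in Mcm3 and Cdt1, and the median position of sensitive tumour 4 over the list was 1.34. Of 17 p53 targets, 5 rose and 3 fell, and with reads scaled to library totals 2 rose and 4 fell, shares near the 40.0% of all genes called.

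Several developmental genes were nearly silent in sensitive tumours 1 to 3. Foxa2, a factor of endoderm and floor plate, had 0 reads in sensitive tumours 1 to 3, 445 normalized counts in sensitive tumour 4 and 394, 323, 458 and 456 in resistant tumours 1 to 4, at least 82.1-fold higher in resistant tumours. Eya1, a transcriptional coactivator of organ placodes, was at 12.7, 4.24, 6.62 and 1774 and at 1635, 3500.4, 1636 and 794 (difference 7.66 ± 0.50). Sall3, a zinc finger factor of limb and nerve, was at 5.76, 11.3, 9.94 and 923 and at 616, 2007, 1868 and 1219.5 (difference 7.06 ± 0.42). Sensitive tumour 4 was inside the resistant range in all 3. Igf2, the fetal growth factor, was at 343, 468, 826 and 52926 and at 57487, 51457, 39334 and 67898 (difference 6.70 ± 0.30). H19, the imprinted RNA beside it, was at 1373, 3046, 9045 and 62791 and at 49860.5, 13211, 36223 and 50103. Igf2os overlaps Igf2 on the other strand and was at 2.30, 5.65, 3.31 and 747 and 602, 782, 641 and 441, so its reads may belong to Igf2. Hmga2, a chromatin protein of embryonic growth, was at 50.6, 89.0, 91.1 and 704 and at 1284, 718, 895 and 1271, and its groups did not overlap even with sensitive tumour 4 included. Of 25 fetal and patterning factors, 17 were tested, 8 rose and 1 fell, beside 20.6% and 19.4% of all genes. The median log2 difference of the list was 2.02. In all 8 tumours 5 were higher without overlap, beside 3.9% of all genes.

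Matrix genes split in direction. Mmp13, a collagenase, was at 594, 627, 431 and 12603 in sensitive tumours 1 to 4 and at 38439, 22154, 17790.0 and 18610.0 in resistant tumours 1 to 4 (difference 5.40 ± 0.28), without overlap. Plaur, the urokinase receptor, was at 77.1, 66.4, 72.9 and 676 and at 789, 676, 572 and 455 (difference 3.07 ± 0.21). Fn1, fibronectin, was at 4606, 6037, 7000.0 and 46474 and at 43123, 61117, 38193 and 33814 (difference 2.89 ± 0.24). In Plaur and Fn1 sensitive tumour 4 lay within the resistant range. Of 18 tested metalloproteinases and plasmin genes, 11 rose and 2 fell, with a median of 2.72. The 2 that fell were Mmp11, a stromal protease, at 3022, 4001, 7068 and 179 and 161, 107, 179.9 and 565, and the protease inhibitor Timp2, at 5494, 6477, 6781 and 1819 and 2314, 4049.9, 3268 and 3189.8. Postn, periostin, was at 23415, 32084, 58109.5 and 4835 and 9905, 16511, 11128 and 9292 and fell. Coch, cochlin, a secreted matrix protein, was at 20944, 18198, 26937 and 77.0 and at 85.7, 64.4, 163 and 149 (difference -7.64 ± 0.33), with sensitive tumour 4 among the resistant values. Sult1c1, a sulfotransferase, was at 725, 390.0 and 46.4 in sensitive tumours 1 to 3 and had 0 reads in the other 5 libraries, at least 148-fold lower in resistant tumours.

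Several keratins of the basal layer and follicle were lower in resistant tumours. Krt14, the keratin whose promoter drives Cre-ER, was at 26572, 36455, 44409 and 19259 in sensitive tumours 1 to 4 and at 13632, 6509, 10989 and 6262 in resistant tumours 1 to 4. Krt15, a keratin of follicle stem cells, was at 28562, 42822, 29094 and 12264 and at 5167, 1112, 5861 and 2429 (difference -3.45 ± 0.53). Krt5, the partner of Krt14, was at 61137, 80422, 111092 and 29825 and at 28796, 20664, 42493 and 10494. Krt14 and Krt5, the defining keratins of basal epidermis, were at 6262 or more in every tumour, while Krt15 was down to 1112 in resistant tumour 2. The groups did not overlap in Krt14 and Krt15 with all 8 tumours. Of 16 basal keratinocyte genes, 2 rose, 6 fell and 8 did not pass, beside 20.6% of all genes that rose and 19.4% that fell. The share of this list that was called was thus not far from that of all genes. Itga3, an adhesion receptor for laminin, was one that rose, at 992, 1129, 2002 and 7266 and 12309, 8338, 7513 and 4983. Lgr5, the follicle stem cell receptor, was at 6362, 4725, 5326 and 1208 and at 1019.5, 1205, 1656 and 2524, and Krt71, a keratin of the inner root sheath, was at 159, 198, 306 and 8.11 and at 13.1, 5.18, 14.3 and 4.88. Of 17 follicle progenitor genes, 3 rose, 9 fell and 5 did not pass, and of 12 tested hair shaft and root sheath genes, 0 rose and 7 fell. In Lgr5 and Krt71 sensitive tumour 4 was at the resistant level.

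**Figure D4:**
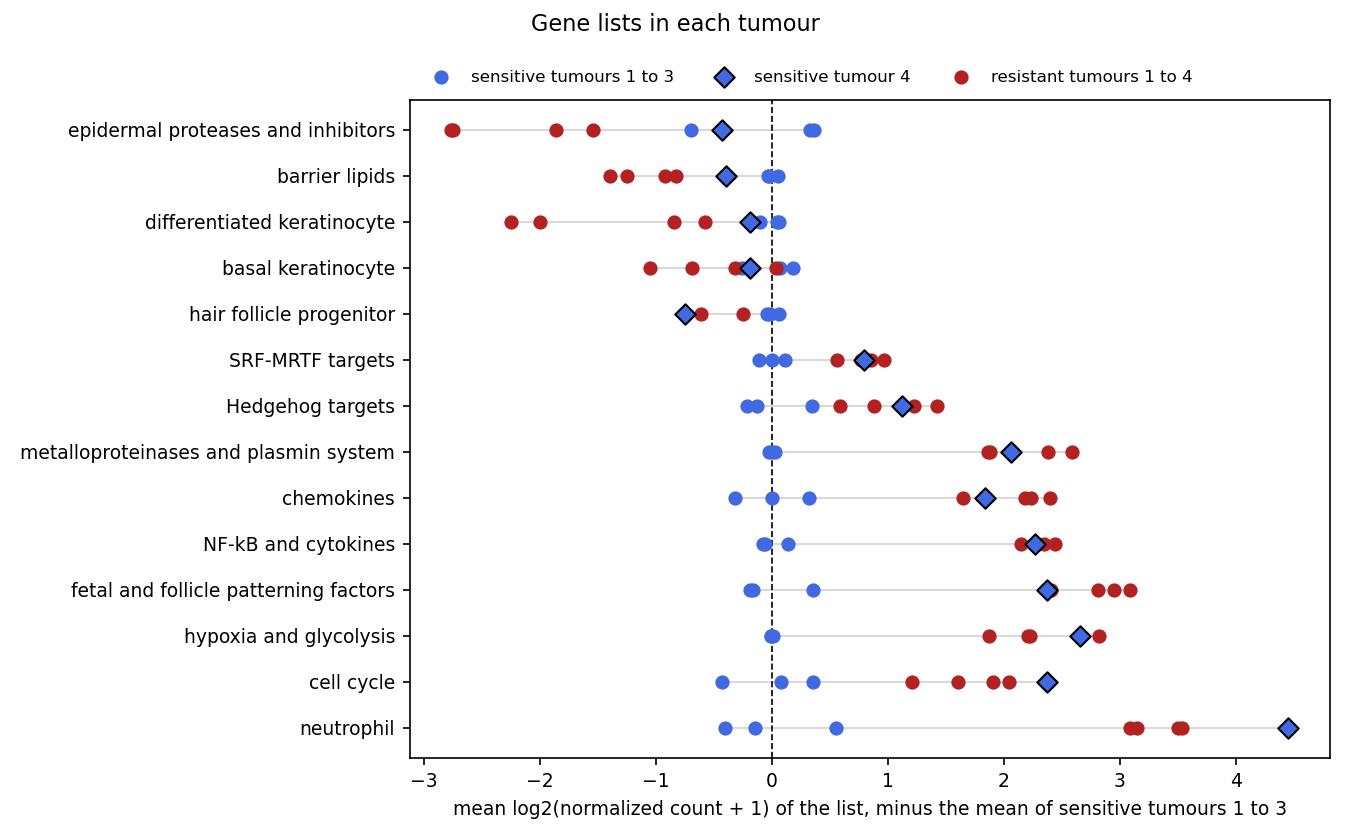
Mean log2(normalized count + 1) of the tested members of gene lists in each tumour, as the difference from the mean of sensitive tumours 1 to 3, with sensitive tumours in blue (diamond, sensitive tumour 4) and resistant tumours in red. Sensitive tumour 4 lies with the resistant tumours in the hypoxia, cell cycle, chemokine and neutrophil lists, between the groups in the barrier lipid list, and among the other sensitive tumours in the epidermal protease list.

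Over the called genes of a list that changed at least 2-fold, the median position of sensitive tumour 4 was 0.44 for epidermal proteases and inhibitors (10 genes), 0.51 for barrier lipids (10) and 0.61 for differentiated keratinocytes (11). It was 0.93 for SRF-MRTF targets (20), 1.09 for Hedgehog targets (9), 1.13 for hypoxia and glycolysis (25), 1.32 for neutrophil markers (12) and 1.34 for the cell cycle (24), beside 1.04 over all such genes. These positions describe the lists and were not compared by a test.

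At 99 of the 3826 genes sensitive tumour 4 was at a position of 0.25 or less, and at 46 of these it was below 0, beyond the mean of sensitive tumours 1 to 3. Among those lower in resistant tumours, Slc5a1, a glucose transporter, was at 136, 230.3, 171 and 199.7 in sensitive tumours 1 to 4 and at 31.5, 16.3, 51.5 and 11.2 in resistant tumours 1 to 4. Krt79, a keratin of the follicle opening, was at 5439, 5635, 2396 and 2975 and at 1308, 484, 874 and 276. Gsdma, a pore-forming protein of skin, was at 218, 411, 427 and 299 and at 144, 31.1, 37.3 and 49.5. H2-M2, a class I-like gene with close relatives, was at 398, 259, 220.2 and 320.3 and at 14.0, 114, 35.7 and 183. The groups did not overlap in any of these 4. Among those higher, Nov, a matricellular relative of Cyr61, was at 80.6, 45.2, 13.2 and 4.05 and at 230.0, 172, 142 and 207, with sensitive tumour 4 the lowest of all. Il33, an alarm cytokine of epithelium, was at 146, 56.5, 268 and 96.3 and at 310.4, 501, 1310.4 and 421. Dlg2, a scaffold protein, was at 172, 131, 71.2 and 137 and at 381, 484, 488 and 329. These 3 did not overlap either, while Lhx8, a homeobox factor, was at 8.06, 1.41, 3.31 and 1.01 and at 5.25, 219, 219 and 158, resistant tumour 1 lying with the sensitive tumours. The calls without sensitive tumour 4 were lost for H2-M2 when any further sensitive tumour or resistant tumour 1 or 3 was left out (limma adjusted p = 0.0577 to 0.133) and with edgeR (0.0780), for Il33 without sensitive tumour 1 (0.0601) or 2 (0.0938), and for Lhx8 without sensitive tumour 2 (0.0921) or 3 (0.0644).

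At 3857 genes, 25.6% of those tested, sensitive tumour 4 lay outside the range of the other 7 tumours, a share inside the 20.5% to 31.3% of the other tumours taken the same way. The genes with the widest gaps are given. Il1rn, the interleukin 1 receptor antagonist, was at 6165 there and at 220.2 to 295 and 878 to 1789.9 in sensitive tumours 1 to 3 and the resistant tumours. Opn4, a light receptor, was at 356 beside 3.31 to 11.3 and 65.9 to 92.8, and Spink12, a protease inhibitor, was at 405 beside 0 to 2.83 and 0.741 to 93.6. Dpp4, a surface peptidase of stroma, was lowest there, at 1.01 beside 178 to 305 and 12.6 to 300.0. Bcl11a, a zinc finger repressor, was at 28.4 beside 944 to 1067 and 191 to 678, and Prelp, a matrix proteoglycan, was at 138 beside 2896 to 6359 and 503 to 2164. In these genes sensitive tumour 4 matched neither group.

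The resistant tumours also differed from each other. Krt6b, a wound keratin with a close relative in Krt6a, was at 378, 1.48, 63.4 and 2.09 in resistant tumours 1 to 4, and Bmp5, a bone morphogenetic protein, was at 783, 7.41, 315 and 32.8. Onecut2, a developmental factor, was at 1050.1, 5.18, 404 and 564, and Sfmbt2, an imprinted Polycomb gene, was at 1687, 6.67, 99.1 and 339. Resistant tumour 2 was the lowest in these 4. Resistant tumour 2 alone was high in Atp6v0d2, a proton pump subunit of osteoclasts, at 4.37, 1199, 19 and 93.5, and in Gzmg, a granzyme with close relatives, at 1.75, 279, 3.96 and 31.4. Resistant tumour 4 alone was high in Marco, a macrophage receptor, at 83.1, 13.3, 52.3 and 2379, and in Lyz2, lysozyme, at 4712, 12045, 4869 and 67712.

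Markers of other cells differed among tumours. Of 17 macrophage and monocyte markers, 15 were tested, 1 rose and 0 fell, and their summed level was 14296 to 26456 across sensitive tumours 1 to 3, 22852 for sensitive tumour 4, 10314 to 28080 in resistant tumours 1 to 3 and 92553 in resistant tumour 4. Skeletal muscle markers summed to 11638 in resistant tumour 1 and to 735 to 2873 in the other 7 tumours, with 7 of 16 markers tested. Fibroblast markers, at 82585 to 159260.5, overlapped between groups, and 4 of 16 rose and 4 fell, beside 20.6% and 19.4% of all genes. Endothelial markers rose at 7 of 14 and fell at 0, beside the same shares of all genes. The endothelial sum was 2894 to 3094 across sensitive tumours 1 to 3, 4128 for sensitive tumour 4 and 3671 to 6823 in the resistant tumours. The part of these cells in the results above was not tested.

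**Figure D5:**
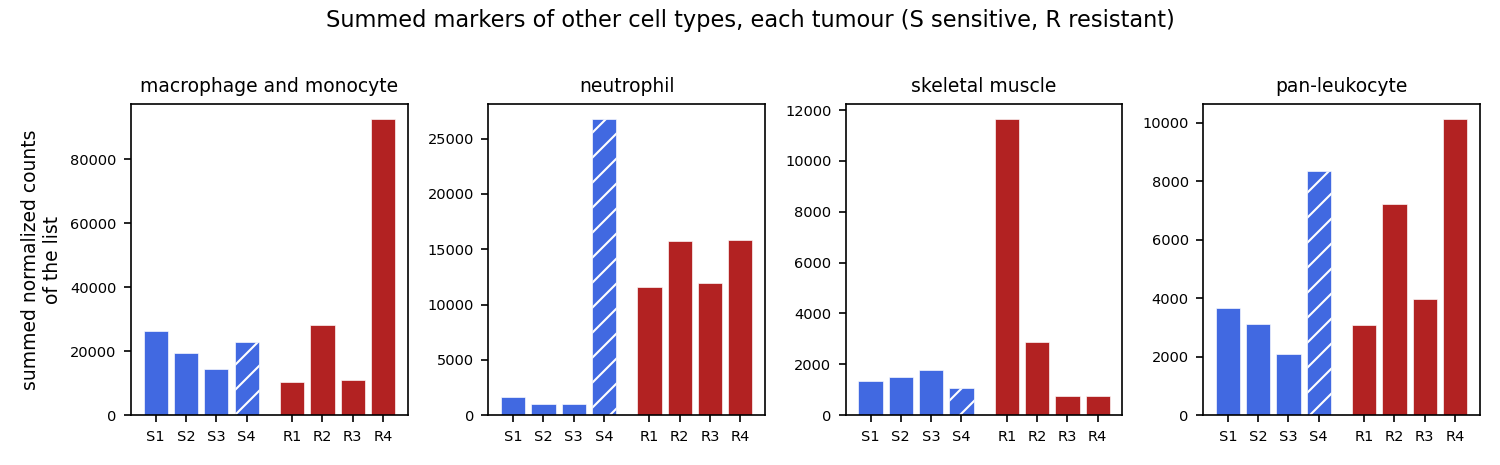
Summed normalized counts (linear axis from 0) of marker genes of other cell types in each tumour, as bars in blue for sensitive and red for resistant tumours, with sensitive tumour 4 hatched. Neutrophil markers separate sensitive tumours 1 to 3 from the other 5 libraries, resistant tumour 4 has the highest macrophage sum at 92553, and resistant tumour 1 the highest skeletal muscle sum at 11638.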

How the data were processed

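RNA of 4 sensitive and 4 resistant tumours was read from 1 table of 24015 genes deposited by the authors. Its values are a normalized signal, gene read counts divided by a size factor, and the deposited values came out as whole reads at 100.0% in every library (within 0.01 read). Per the submitters' processing notes the tools include TopHat and DESeq and the build mm9; their roles, versions and the strandedness are not stated there. Chi-square per degree of freedom was 12.8 to 37.4 among sensitive tumours 1 to 3 and 147 to 173 between these and sensitive tumour 4. Between resistant libraries it was 52.2 to 94.8. No library is thus a repeat read of another within its group. The ratio cannot show whether libraries came from the same tumour or animal.

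Tests were made in R 4.3.3 with limma 3.58.1 on log2(normalized count + 1), with a variance trend and Benjamini-Hochberg adjustment over all genes tested, at a threshold of 0.05. Genes needed a normalized count of at least 10 in 4 tumours, or in 3 without sensitive tumour 4. edgeR 4.0.16 and DESeq2 1.42.0 on the recovered reads were alternatives. The limma fits were also run on simulated counts with known changes, in which no tumour was made to lie with the other group. That run cannot show how the fit behaves with sensitive tumour 4, and its outcome is not reported here. Genes were rated against the floor of 3 reads where a group was at 0.

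The tumours, gene lists and tests were chosen with earlier results of these data known. Named genes were those passing with all 8 tumours, those with the largest gap between groups, the largest changes that sensitive tumour 4 shared or did not share, the genes in which it or the resistant tumours stood apart, up to 4 of smallest p per list, and a fixed set of pathway genes, of which some are not reported here. Boc, Car12, Ccl22, Ccl27a, Cnn2, Ctsd, Cxcl10, Cyp4f39, Elovl1, Fermt2, Fhl2, Filip1l, Gapdh, Hmga2, Klk8, Klk9, Klk10, Lor, Lyz2, Mmp11, Myl6, Sfrp1, Sox9, Tgm1, Thbs1 and Timp2 were chosen after their values were seen. Exome and cell culture data were not analysed here.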

Additional observations from a re-analysis of the deposited data

Results flagged for a closer look

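In groups of 4 tumours, a value was marked when the gap between the most extreme tumour and its nearest neighbour took up more of the group's range than Dixon's 95% critical value for 4 samples. Of 299 groups tested, 40 were marked. Chance marks about 1 in 20 only where groups are not picked by their values, so that rate is no yardstick here. In 35 of the 40 it was sensitive tumour 4 that lay apart from sensitive tumours 1 to 3. Many of the genes were named because of where that tumour lay, so these counts are a description and no test.

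Among single genes, sensitive tumour 4 was the highest of its group in Bmp5 (ratio 1.0), Chst9 (1.0), Cxcl3 (1.0), Foxa2 (1.0), P4ha2 (0.968), Il1b (0.967), Gapdh (0.959), Vegfa (0.952), Mcm3 (0.949), Itga5 (0.943), Cdt1 (0.941) and Plaur (0.936). Smaller ratios with it highest were those of Slc16a3 (0.922), Il1rn (0.913), Mmp13 (0.889), Sall3 (0.878), Igf2os (0.871), Gli1 (0.848), C1qtnf3 (0.838), S100a9 (0.836) and Eya1 (0.836). Sensitive tumour 4 was the lowest in Bcl11a (0.966), Coch (0.933), Car12 (0.912), Dpp4 (0.894), Csrp1 (0.847), Timp2 (0.840) and Trp53 (0.838), and in the share of reads taken by Malat1 (0.838).

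Of the gene lists, scored as in the plot of list means, sensitive tumour 4 was the highest of its group for hypoxia and glycolysis (0.993), metalloproteinases and plasmin genes (0.977), skeletal muscle (0.918) and NF-kB and cytokine genes (0.907). It was the lowest for hair shaft and inner root sheath genes (0.913) and follicle progenitor genes (0.864). By the summed level of skeletal muscle markers, sensitive tumour 4 was instead the lowest of its group, at 1085 beside 1359 to 1795.

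In the other 5 groups a resistant tumour lay apart. Resistant tumour 2 was the lowest in Kprp (0.983), Cnn2 (0.9497) and Mcm3 (0.852), and resistant tumour 1 was the lowest in Lhx8 (0.908). Resistant tumour 3 was the highest for the list of Hedgehog components (0.877).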

How the results depend on the processing

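Of the 17 calls with all 8 tumours, limma gave 20 with a pseudocount of 5 and 17 without a filter, but 0 with a pseudocount of 0.5, a filter at 50, reads scaled to library totals, quantile normalization or robust variance (3173 to 3878 genes at an unadjusted p under 0.05), 0 with edgeR (3513) and 1638 with DESeq2. Leaving out 1 tumour gave 0 to 6184, where 6184 was without sensitive tumour 4. The replicate numbers do not pair the tumours: deviations of same-numbered tumours correlated at -0.15, 0.06, 0.12 and -0.09 over genes, and with the replicate number as a block 0 genes passed by limma (3365 unadjusted). With the Y-read term 0 passed under every alternative run, in a design that rests on 1 sensitive tumour. The 6184 calls without sensitive tumour 4 became 5326 to 6802 under other settings, of which 5289 to 6167 were among the 6184, and 3859 to 6244 without a further tumour, 3859 being without sensitive tumour 2. Genes whose groups did not overlap numbered 972 to 1451 under other settings and 1303 to 7363 without 1 tumour. The share of genes with sensitive tumour 4 at a position of 0.75 or more was 80.2% without a filter and 83.1% with a filter at 50, beside 81.7%.

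Signs changed at 8 named genes, none of which passed in either fit. They were Ctsd (-0.041), Lyz2 (-0.073) and Klk8 (0.057) with quantile normalization, Elovl1 (-0.0041) with library totals, and Klk8 (0.10 and 0.094) and Marco (0.65 and 0.65) with edgeR and DESeq2. Leaving out 1 tumour gave -0.63 to 1.97 for Atp6v0d2, -0.36 to 0.082 for Gli3, -0.0038 to 0.48 for Mkl1, -0.42 to 0.39 for Klk8 and -0.66 to 0.63 for Lyz2. Of the values for named genes with all 8 tumours, 126 over 9 genes lost a call and 10 over 5 genes gained one. The gains were at Klk5, Klk9, Pla2g2f, Sorbs2 and Spink5, with DESeq2 or without sensitive tumour 4. Of the values from the fit without sensitive tumour 4, 1673 kept their direction and side of the threshold, 52 over 14 genes lost a call and 9 over 6 genes gained one. The cause of these changes was not tested. Genes under about 5 normalized counts are within the floor of 3 reads in the shallowest library, so their differences are limited by depth.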
